A study of Mus musculus with 3 samples.

Results

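The enzymes that write, erase and recruit chemical marks on histones and DNA were followed through 12 h of hormone-induced ovulation in mouse granulosa cells. Members were taken by symbol: numbered genes of the lysine demethylase (Kdm), histone deacetylase (Hdac), lysine acetyltransferase (Kat), lysine methyltransferase (Kmt), SET domain (Setd), sirtuin (Sirt), DNA methyltransferase (Dnmt) and TET families, plus Ezh1, Ezh2, Suz12 and Eed of Polycomb repressive complex 2. They numbered 73 of 24225 genes. One of them, Dnmt3aos, is an antisense noncoding RNA that matches by symbol and is no enzyme. The symbol rule also takes in enzymes whose main substrates are not histones, such as the mitochondrial sirtuins. A gene's level is the sum of the deposited FPKM (fragments scaled to transcript length and library size) of its isoforms.

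All animals were wild type C57BL/6 females aged 21 to 28 days after birth. All received 4 IU of eCG, a gonadotropin that drives follicle growth. One group gave ovaries with no further hormone (0 h). The other groups gave ovaries 4 h or 12 h after 5 IU of hCG, which acts on the LH receptor and stands in for the ovulatory LH surge. Granulosa cells, which surround and nourish the oocyte and make steroid hormones, were released by puncturing follicles, and RNA came from 3 mice at each time. There was 1 mRNA library per time, and the sources used here do not say whether the RNA of the 3 mice was pooled. No difference below therefore has a replicate check, and no test was possible.

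Chromatin marks are set by opposing enzymes. Acetyltransferases and deacetylases add and remove histone acetyl groups, methyltransferases and demethylases do the same for histone methyl groups, and DNA methylation is set by DNMT enzymes and oxidised by TET enzymes. After the LH surge granulosa cells leave the cell cycle and turn into luteal cells, a change of cell state that comes with new patterns of histone marks at steroidogenic genes. The Sirt3, Sirt4 and Sirt5 proteins work in mitochondria on metabolic enzymes.

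The libraries held about 13400000, 11900000 and 11600000 fragments at 0, 4 and 12 h, as estimated from the steps between the lowest FPKM values. All 8 granulosa cell markers were present in each library, the lowest of them at 133, 15.5 and 32.1 FPKM. By the 2-fold rule used below, 5 of the 8 were lower at 4 h than at 0 h. Oocyte markers summed to 255, 196 and 350 FPKM, endothelial markers to 28.8, 48.3 and 23.6, neutrophil markers to 1.81, 24 and 3.55, and surface epithelium markers to 54.8, 134 and 78.5. The sums were 1739, 1092 and 1111 for erythroid, 285, 348 and 326 for theca and stroma, 126, 191 and 187 for smooth muscle, and 56.2, 86.7 and 91.4 for leukocyte markers. RNA of other cells was thus in all 3 libraries, in amounts that differed between times. In such bulk samples fewer cells of a type and less RNA per cell cannot be told apart. The sum of FPKM over all genes also differed, at 501561, 621365 and 472904, so each direction was checked on libraries rescaled to the mean of these sums.

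Nearly all of the members were expressed before hCG. At 0 h 4 members were under 1 FPKM, 21 lay between 1 and 10, 38 between 10 and 30, and 10 at 30 or above. The counts were 5, 17, 39 and 12 at 4 h and 4, 22, 39 and 8 at 12 h. The members together made up 0.263%, 0.238% and 0.276% of the summed FPKM of the 0, 4 and 12 h libraries. By their mean over the 3 libraries the 10 highest were Hdac2, Kdm1a, Hdac3, Kmt5a, Dnmt1, Kat2a, Kmt5c, Kdm3a, Sirt7 and Setd5. Hdac2, a class I deacetylase, led with 112, 119 and 104 FPKM at 0, 4 and 12 h. The 4 members under 1 FPKM in every library were Kdm4d, the Y-linked Kdm5d, Hdac9 and Dnmt3aos, with no value above 0.151 FPKM.

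**Figure D1:**
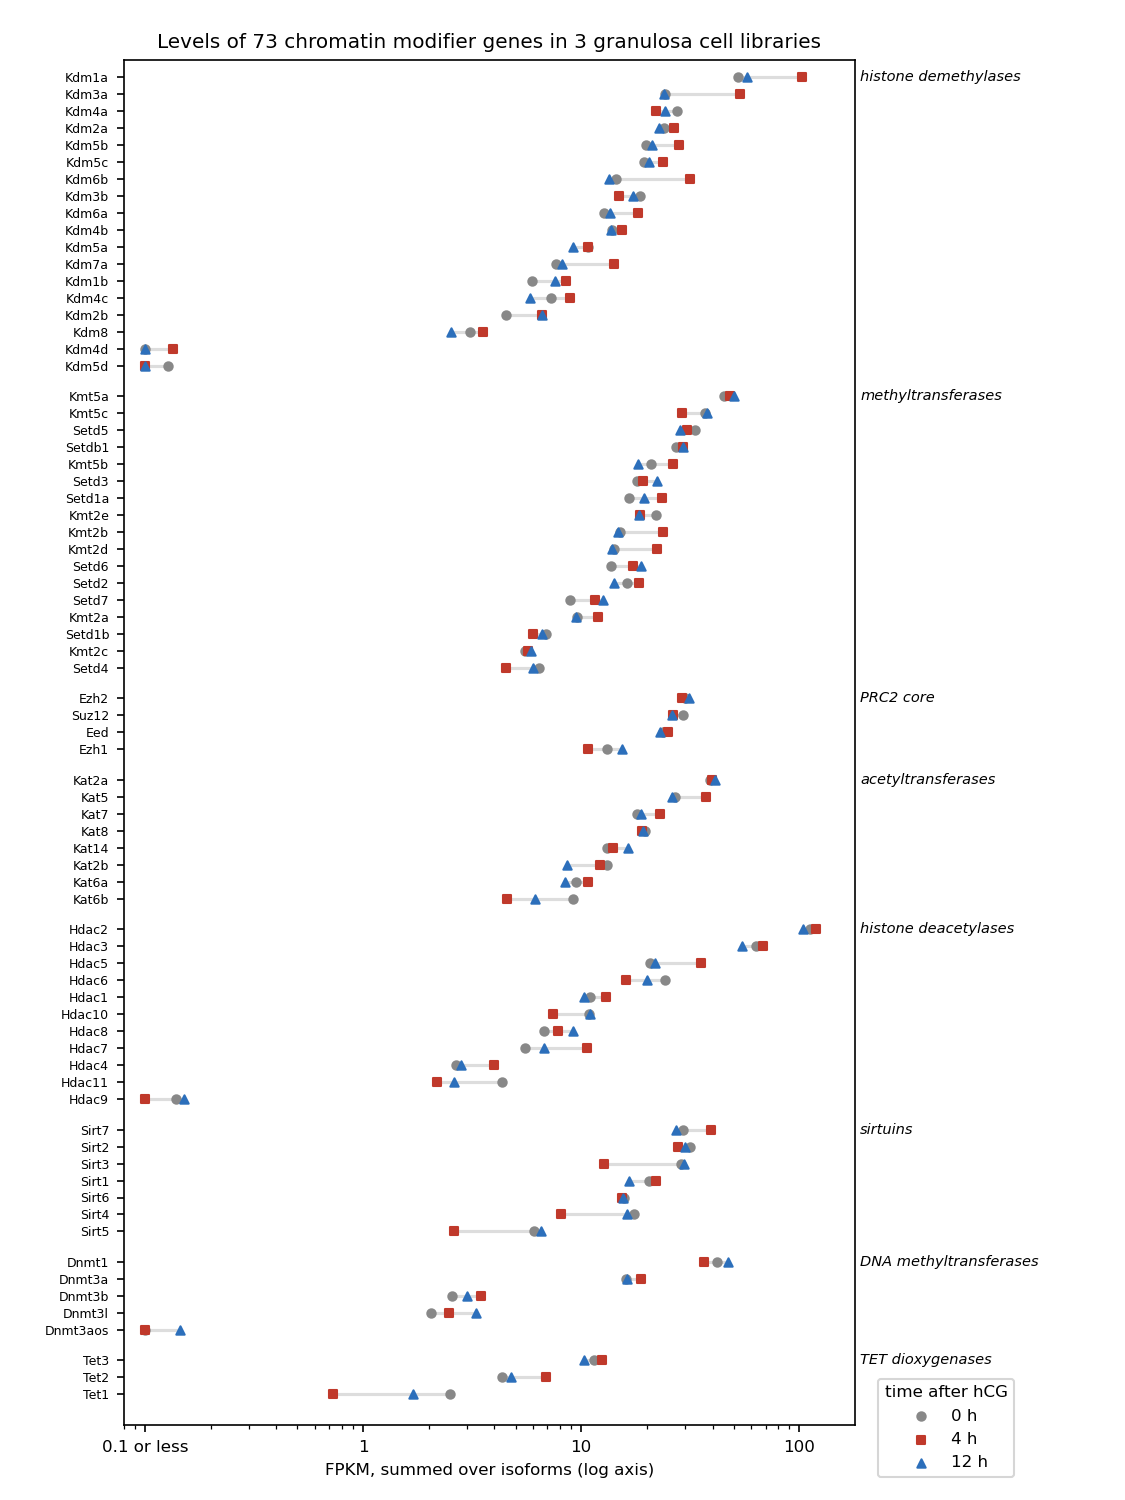
Level of each of the 73 members in the 3 libraries, in FPKM summed over isoforms on a log axis, by family and ordered by mean level. Grey circles are 0 h, red squares 4 h and blue triangles 12 h after hCG, and values of 0.1 FPKM or less are drawn at 0.1. Most rows have their 3 symbols close together, and wide spreads include those of Kdm1a, Kdm3a, Kdm6b, Kdm7a, Sirt3, Sirt4, Sirt5 and Tet1.

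Differences are given as log2 of the ratio of FPKM + 1, and a gene counted as higher or lower when it was 2-fold apart on that scale and reached 1 FPKM in either library. That threshold is a size, with no test behind it. Of the 73 members 69 met the floor in each comparison. Between 0 h and 4 h, 2 of 69 members (2.9%) were higher, against 10.2% of 13240 genes, and 3 (4.35%) were lower, against 7.03%. The higher members were Kdm3a and Kdm6b, and the lower ones Sirt3, Sirt4 and Tet1. Tet1 met the floor only through the 0 h library where it was high, so its call adds nothing to the count. Between 4 h and 12 h, 2 (2.9%) were higher, against 4.83% of 13242 genes, and 2 (2.9%) were lower, against 7.88%. Sirt3 and Sirt5 were the higher ones, Kdm3a and Kdm6b the lower ones. Both comparisons use the 4 h library, so a value that is off in that library alone would move both. Between 0 h and 12 h no member was called higher or lower, against 3.16% and 2.55% of 13026 genes, and every log2 fold lay between -0.56 and 0.49. The members' median absolute log2 fold was 0.28, 0.30 and 0.11 in the 3 comparisons, against 0.44, 0.39 and 0.22 over all genes.

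On libraries rescaled to the mean of their sums the calls changed. The median log2 fold of all genes moved from -0.01 to -0.29 between 0 h and 4 h, and from 0.01 to 0.37 between 4 h and 12 h. The share of all genes called higher and lower at 4 h moved from 10.2% and 7.03% to 7.6% and 13.1%. Between 4 h and 12 h it moved from 4.83% and 7.88% to 12.6% and 5.23%. Kdm3a and Kdm6b then fell short of 2-fold in both comparisons, while Sirt3, Sirt4, Sirt5, Tet1 and Kat6b were lower at 4 h, and Sirt3, Sirt4 and Sirt5 higher at 12 h than at 4 h. Long genes also had higher log2 folds at 4 h than short ones. With that trend removed, Kdm6b (0.94) and Sirt4 (-0.97) were just short of 2-fold at 4 h, and Sirt5 (0.98) at 12 h over 4 h, while Kdm3a (1.03), Sirt3 (-1.04), Tet1 (-1.16) and, newly, Kat6b (-1.0003) were past it at 4 h. Ratios between 2 genes of the same library do not depend on this scaling and are given below beside the members concerned.

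**Figure D2:**
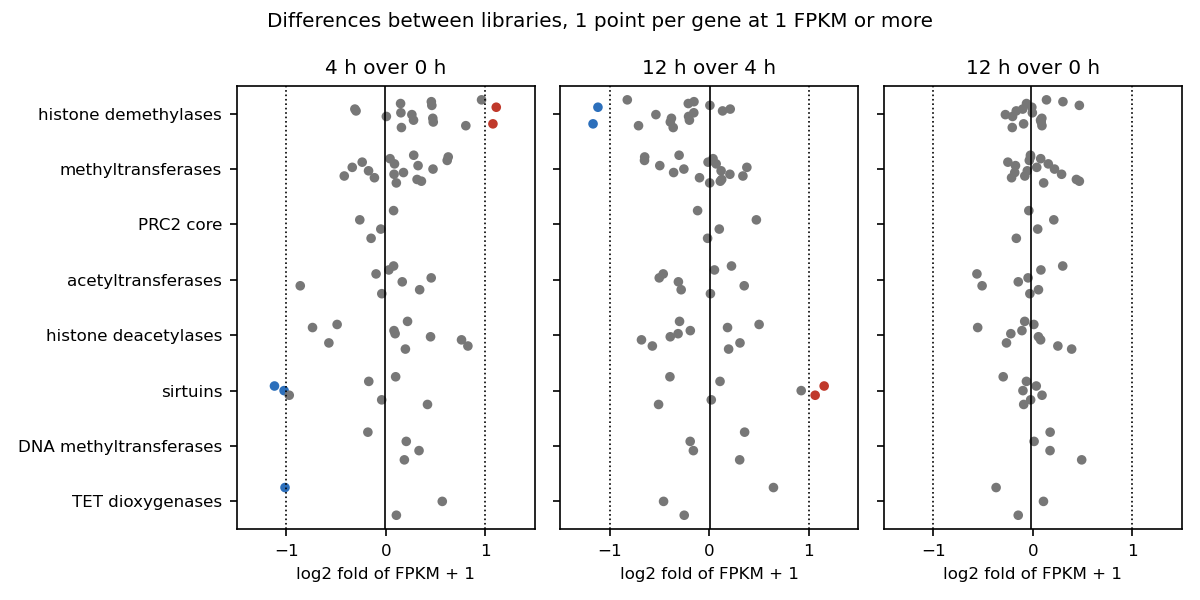
Log2 fold of FPKM + 1 for each of the 69 members at 1 FPKM or more, by family, in the 3 comparisons. Red and blue points are past the 2-fold rule (dotted lines at -1 and 1), grey points are not, and the solid line is the median of all genes. The first panel has 5 coloured points, the second 4 and the third none.

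In the histone demethylases 2 of 16 genes were higher at 4 h on the deposited scale, or 12.5%, near the 10.2% of all genes. The family has 18 genes, of which 16 were measured at the floor, and 14 had a positive and 2 a negative log2 fold at 4 h (median 0.37, against -0.01 over all genes). On rescaled libraries, which move all genes alike, the signs were 8 and 8 and the medians 0.08 and -0.29. By 12 h the family's median against 0 h was -0.01. Kdm3a and Kdm6b, past 2-fold, and Kdm1a, just short of it, stood out.

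Kdm3a removes methyl groups from lysine 9 of histone H3. It spans chromosome 6 from 71588970 to 71632990 in the GRCm38.p6 annotation. It measured 24.3 FPKM at 0 h (interval 17.1 to 33.4), 53.6 at 4 h (39.3 to 71.5) and 24.1 at 12 h (22.2 to 26.0). A deposited interval spans 2 of the deposited standard deviations on either side of an isoform's value, with the lower bound cut at 0. For a gene with several isoforms, such as Kdm3a, the interval given was computed from the isoforms' half-widths, as the root of their summed squares. That treats the isoform estimates as independent. Either kind of interval covers the estimate within 1 library and says nothing of mice. The 4 h interval lay above both others. The log2 folds were 1.11 at 4 h over 0 h, -1.12 at 12 h over 4 h and -0.01 at 12 h over 0 h, and 0.81 and -0.74 for the first 2 on rescaled libraries. Kdm3b, its close relative, went the other way, at 18.7, 14.9 and 17.3 FPKM. The ratio of Kdm3a to Kdm3b within a library was 1.30, 3.61 and 1.39.

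Kdm6b erases methylation of lysine 27 of histone H3, the mark that Polycomb repressive complex 2 writes. It lies on chromosome 11 from 69398508 to 69420367. Its levels were 14.4 FPKM at 0 h (13.2 to 15.6), 31.5 at 4 h (29.7 to 33.3) and 13.4 at 12 h (12.3 to 14.6), with log2 folds of 1.08 and -1.17 (0.78 and -0.79 on rescaled libraries). The 0 h and 12 h intervals overlapped, and the 4 h interval stood above both. Kdm6a, the X-linked eraser of the same mark, was at 12.8, 18.2 and 13.6 FPKM, so that the ratio of Kdm6b to Kdm6a went from 1.13 to 1.73 and back to 0.988.

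Kdm1a, which removes methyl groups from lysine 4 of histone H3 and was the most abundant demethylase, was at 52.1 FPKM at 0 h (48.6 to 55.7), 102.5 at 4 h (97.5 to 107.6) and 57.4 at 12 h (53.7 to 61.2). That is 1.97 times the 0 h level at 4 h, a log2 fold of 0.96, just under the 2-fold rule, and its 4 h interval lay apart from the others. The ratio of Kdm1a to its relative Kdm1b was 8.78, 12.0 and 7.60. Kdm7a, an eraser of lysine 9 and lysine 27 methylation, measured 7.64, 14.1 and 8.20 FPKM (log2 folds 0.80 and -0.71). These demethylases therefore shared the order of times, highest at 4 h, with 12 h levels of 0.933 to 1.10 times those at 0 h.

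The other demethylases moved less. Kdm5b, an eraser of lysine 4 methylation, was at 19.9, 27.9 and 21.2 FPKM, with the 4 h interval apart from both others. Kdm4a, which acts on lysine 9 and lysine 36, was at 27.4, 22.1 and 24.3, and with Kdm3b made up the 2 negative log2 folds. As a set the 5 measured erasers of lysine 4 (Kdm1a, Kdm1b, Kdm5a, Kdm5b and Kdm5c) summed to 108, 173 and 116 FPKM, and the 6 writers of the same mark (Kmt2a to Kmt2d, Setd1a and Setd1b) to 67.9, 93.1 and 70.0. The ratio of erasers to writers within a library was 1.59, 1.86 and 1.66. Kdm1a alone gave 52.1, 102.5 and 57.4 FPKM of the eraser sum, so this ratio rests largely on 1 gene. The median log2 fold at 4 h was 0.46 for the erasers and 0.38 for the writers. The surface epithelium, endothelial, neutrophil, theca and smooth muscle marker sums were also highest at 4 h, and their part in the demethylase levels was not tested.

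**Figure D3:**
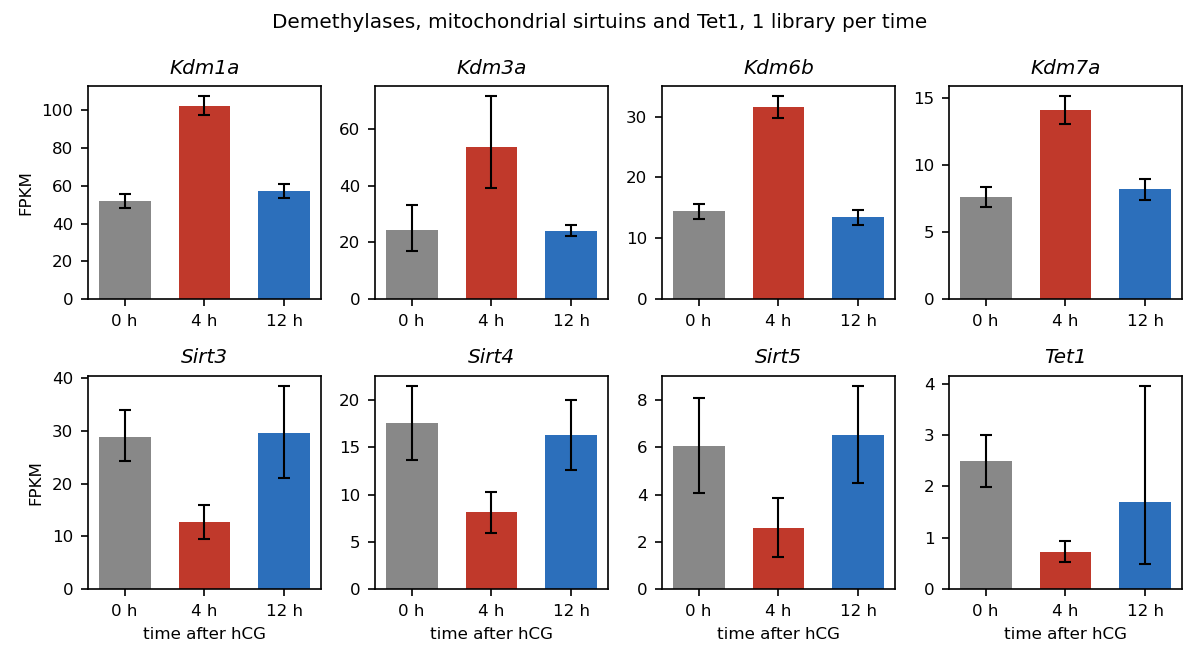
FPKM of 4 demethylases (top row), the 3 mitochondrial sirtuins and Tet1 (bottom row) at 0, 4 and 12 h after hCG, 1 library per time. Error bars are the deposited intervals for genes with 1 isoform and intervals combined over isoforms for the others. They cover the estimate within a library only. The 4 h bar is the highest in each panel of the top row and the lowest in each panel of the bottom row.

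The sirtuins, NAD-dependent deacylases, divided by where in the cell they work. The 3 mitochondrial sirtuins summed to 52.4 FPKM at 0 h, 23.4 at 4 h and 52.4 at 12 h, while the 4 nuclear and cytoplasmic ones (Sirt1, Sirt2, Sirt6 and Sirt7) summed to 96.9, 104 and 89.3. Within a library the mitochondrial sum was 0.541, 0.224 and 0.586 of the other sum.

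Sirt3, the main protein deacetylase of mitochondria, lies on chromosome 7 from 140863663 to 140882309. It was at 28.8 FPKM at 0 h (24.4 to 33.9), 12.7 at 4 h (9.51 to 15.9) and 29.5 at 12 h (21.0 to 38.5). The 4 h interval lay below both others, and the log2 folds were -1.12 and 1.15 (-1.41 and 1.53 on rescaled libraries). Sirt4, which acts on metabolic enzymes in the mitochondrial matrix, was at 17.5 FPKM (13.6 to 21.5), 8.12 (5.94 to 10.3) and 16.3 (12.6 to 20.04), with log2 folds of -1.02 and 0.92. The second of these is short of the rule although the FPKM differed by 2.01 times, because of the added 1 FPKM.

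Sirt5, which removes succinyl and related groups, was at 6.07 FPKM (4.06 to 8.08), 2.60 (1.34 to 3.87) and 6.54 (4.48 to 8.59), with log2 folds of -0.97 and 1.06. For each of the 3 genes the 0 h and 12 h intervals overlapped and the 4 h interval was apart from both. The nuclear Sirt6 was level on the deposited scale, at 15.8, 15.3 and 15.5 FPKM. On rescaled libraries its log2 folds were -0.33 at 4 h over 0 h and 0.39 at 12 h over 4 h. Against Sirt6 the ratios were 1.82, 0.83 and 1.90 for Sirt3, 1.11, 0.53 and 1.05 for Sirt4, and 0.384, 0.17 and 0.421 for Sirt5. Sirt7, a nucleolar sirtuin, was highest at 4 h (29.2, 39.3 and 27.3 FPKM, log2 fold 0.42), and on rescaled libraries its log2 fold was 0.12. The oocyte and erythroid marker sums were lowest at 4 h too. The median of the 8 granulosa markers was 278, 97.4 and 301 FPKM. Of the 8, 5 were lower at 4 h and 5 were higher at 12 h than at 4 h, against 7.03% and 4.83% of all genes. The part of these cell types in the sirtuin levels was not tested.

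Promoter sequences are shown for the 3 mitochondrial sirtuins, whose levels moved together, and for Kdm3a and Kdm1a, which moved the opposite way. They come from RefSeq on GRCm38.p6, run 5′ to 3′ on the gene's strand, and hold 250 bases before to 50 bases after the start. The start is the most upstream one for which a window was available. For Sirt4 that start, 115484297, lies inside the annotated gene (115478006 to 115490264) and not at its upstream end. A window was matched for 61 of the 73 members. Capitals mark matches, on either strand, to the short cAMP response element TGACG, the core ACGTG, the GC box GGGCGG and the NRF1 motif. The windows are chr7:140882260-140882559 (minus strand) for Sirt3, chr5:115484248-115484547 (minus) for Sirt4, chr13:43365285-43365584 (plus) for Sirt5, chr6:71632868-71633167 (minus) for Kdm3a and chr4:136602674-136602973 (minus) for Kdm1a.
Sirt3: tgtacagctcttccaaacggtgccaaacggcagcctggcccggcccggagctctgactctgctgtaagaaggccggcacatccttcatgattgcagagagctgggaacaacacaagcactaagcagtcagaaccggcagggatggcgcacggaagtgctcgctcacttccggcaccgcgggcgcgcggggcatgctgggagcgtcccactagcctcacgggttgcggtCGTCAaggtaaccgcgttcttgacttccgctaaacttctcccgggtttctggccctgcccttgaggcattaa
Sirt4: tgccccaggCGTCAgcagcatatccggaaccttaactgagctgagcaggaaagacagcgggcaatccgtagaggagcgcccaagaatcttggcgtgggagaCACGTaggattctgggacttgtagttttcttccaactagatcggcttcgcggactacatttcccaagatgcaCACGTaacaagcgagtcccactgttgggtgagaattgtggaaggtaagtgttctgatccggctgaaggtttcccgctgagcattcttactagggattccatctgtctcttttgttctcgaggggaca
Sirt5: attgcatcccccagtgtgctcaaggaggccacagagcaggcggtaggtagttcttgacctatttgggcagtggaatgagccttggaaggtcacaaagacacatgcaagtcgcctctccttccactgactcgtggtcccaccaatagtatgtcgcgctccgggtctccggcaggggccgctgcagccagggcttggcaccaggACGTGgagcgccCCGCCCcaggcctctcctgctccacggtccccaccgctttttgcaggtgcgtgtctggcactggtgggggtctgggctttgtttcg
Kdm3a: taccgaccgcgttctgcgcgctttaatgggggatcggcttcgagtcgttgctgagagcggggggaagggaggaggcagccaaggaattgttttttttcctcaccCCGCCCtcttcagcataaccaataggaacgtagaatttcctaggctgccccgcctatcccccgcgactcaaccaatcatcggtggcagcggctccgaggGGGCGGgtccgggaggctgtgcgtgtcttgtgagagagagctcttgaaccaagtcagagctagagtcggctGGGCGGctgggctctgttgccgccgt
Kdm1a: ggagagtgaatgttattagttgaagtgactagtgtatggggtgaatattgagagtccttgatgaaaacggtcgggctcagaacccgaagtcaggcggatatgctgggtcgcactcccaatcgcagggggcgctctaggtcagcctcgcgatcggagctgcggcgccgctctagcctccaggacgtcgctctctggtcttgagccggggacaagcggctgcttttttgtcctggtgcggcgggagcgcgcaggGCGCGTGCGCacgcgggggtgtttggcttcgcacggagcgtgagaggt

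No motif searched was in the windows of all 3 mitochondrial sirtuins. Sirt3 and Sirt4 each held 1 TGACG match, Sirt4 held 2 matches to ACGTG and Sirt5 1, and Sirt5 held 1 GC box. Kdm3a held 3 GC boxes and Kdm1a 1 NRF1 match just after the start. The full element TGACGTCA, which contains TGACG and overlaps ACGTG in 4 letters, was in 0 of 61 member windows and in 1.85% of 27025 windows of all genes. TGACG was in 31.1% of member windows and 20.9% of all, ACGTG in 23% and 19.6%, the GC box in 59% and 35.9%, and the NRF1 motif in 11.5% and 4.82%. The windows of all genes include genes not expressed here, while nearly all members were expressed, so these shares compare unlike sets. A match is a description of the letters and not evidence of binding.

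The start of Sirt3 lies 85 bases from that of Psmd13, a proteasome subunit gene that runs the other way. Psmd13 was level on the deposited scale, at 71.0, 71.2 and 73.7 FPKM. On rescaled libraries its log2 folds were -0.30 at 4 h over 0 h and 0.44 at 12 h over 4 h. The ratio of Sirt3 to Psmd13 within a library went from 0.406 to 0.178 and back to 0.401. Sirt3 exons overlap those of Psmd13 by 342 bases and those of Ric8a by 418 bases on the other strand. Ric8a was at 17.5, 27.2 and 19.6 FPKM. The sources used here do not say whether the libraries kept strand, so reads in those stretches cannot be assigned to 1 gene with certainty. Of the members with a start site in the annotation, 7 had a neighbour that starts within 1 kb, runs the other way and reached 1 FPKM in at least 1 library.

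**Figure D4:**
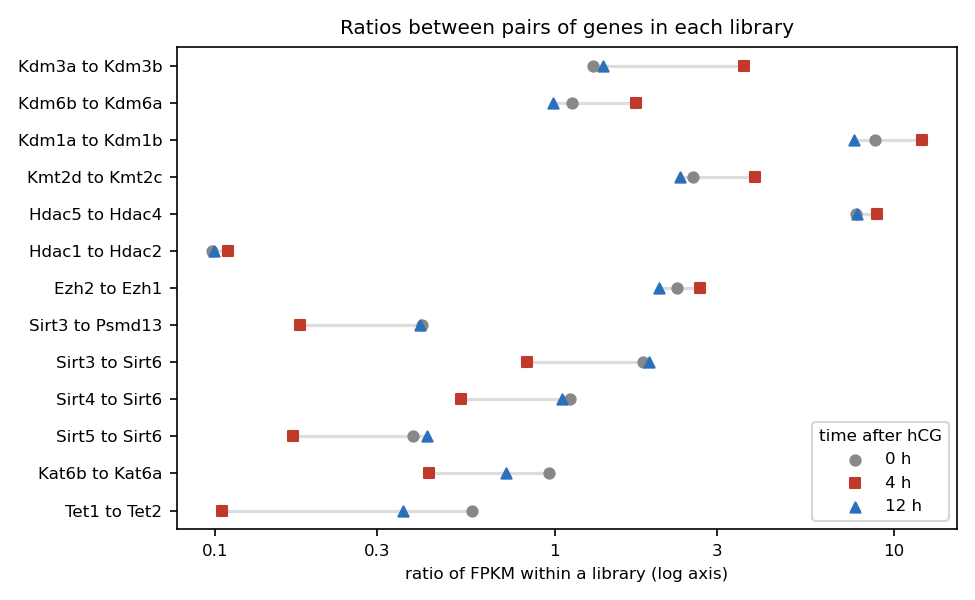
Ratio of FPKM between pairs of genes within each library, on a log axis. Grey circles are 0 h, red squares 4 h and blue triangles 12 h. The 4 h square stands far to the right for Kdm3a to Kdm3b (3.61) and far to the left for each sirtuin ratio and for Tet1 to Tet2 (0.105), while Hdac1 to Hdac2 stays between 0.0983 and 0.109.

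None of the 17 methyltransferases taken by symbol was past 2-fold in any comparison. Of all genes 10.2% were higher and 7.03% lower at 4 h over 0 h. The shares were 4.83% and 7.88% at 12 h over 4 h, and 3.16% and 2.55% at 12 h over 0 h. The largest differences were in Kmt2b and Kmt2d, which methylate lysine 4 of histone H3 at promoters and enhancers. Kmt2d was at 14.2 FPKM at 0 h (13.5 to 14.9), 22.3 at 4 h (21.4 to 23.2) and 13.8 at 12 h (13.1 to 14.5), with log2 folds of 0.62 and -0.65. Kmt2b was at 15.0, 23.8 and 14.8 FPKM, with wide intervals that overlapped at all times (5.04 to 27.8 at 0 h and 10.4 to 40.7 at 4 h). Setd1a, another lysine 4 methyltransferase, was at 16.6, 23.4 and 19.5 FPKM. The ratio of Kmt2d to Kmt2c was 2.56, 3.89 and 2.34, and that of Setd1a to Setd1b 2.40, 3.90 and 2.95.

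Kmt5a, which places the first methyl group on lysine 20 of histone H4, had the highest level of the family at 45.1, 47.9 and 50.3 FPKM, and Setd4 the lowest at 6.39, 4.53 and 5.98. Kmt5c, which adds further methyl groups to the same lysine, was at 36.8, 28.9 and 37.8. Setd7 was at 8.85 FPKM at 0 h (7.73 to 9.96), 11.6 at 4 h and 12.6 at 12 h (11.5 to 13.7). Its 0 h and 12 h intervals lay apart, as did those of Kmt2e (22.0 and 18.3) and Setd5 (33.3 and 28.5). The log2 folds at 12 h over 0 h were 0.47, -0.25 and -0.21 for Setd7, Kmt2e and Setd5. On rescaled libraries they were 0.55, -0.17 and -0.13. The share of all genes with such intervals apart is not given here.

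On the deposited scale the core of Polycomb repressive complex 2 stayed close to its starting level. Ezh2, its main catalytic subunit, was at 30.1, 29.0 and 31.1 FPKM, Eed at 23.6, 25.0 and 22.9, and Suz12 at 29.4, 26.4 and 26.1. Ezh1, the alternative catalytic subunit, was at 13.1, 10.8 and 15.4, and its 4 h and 12 h intervals lay apart (8.87 to 12.7 and 13.1 to 17.6). The largest log2 fold in the core was 0.47, for Ezh1 at 12 h over 4 h, and 0.84 on rescaled libraries. On that scale the core's median was -0.40 at 4 h and 0.42 at 12 h over 4 h. The medians of all genes were -0.29 and 0.37. The ratio of Ezh2 to Ezh1 was 2.29, 2.69 and 2.03.

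A partner of this complex differed far more than its core. Among 7 accessory genes Jarid2, a subunit that helps recruit and regulate the complex, was at 11.3 FPKM at 0 h, 66.4 at 4 h and 15.4 at 12 h, with log2 folds of 2.46 and -2.04 (2.16 and -1.66 on rescaled libraries). Aebp2, another accessory subunit, was at 18.5, 39.8 and 20.2 FPKM (log2 fold 1.07 at 4 h), and was short of 2-fold on rescaled libraries. The other 5 accessory genes were within 2-fold. Of the 7, 28.6% were thus higher at 4 h, against 10.2% of all genes.

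The 8 acetyltransferases had no call on the deposited scale, where 10.2% and 7.03% of all genes were higher and lower at 4 h. Kat6b, a MYST family acetyltransferase of histone H3 that was called lower on rescaled libraries and with the length trend removed, came nearest, at 9.13 FPKM at 0 h (7.80 to 10.5), 4.58 at 4 h (3.63 to 5.53) and 6.11 at 12 h (5.03 to 7.19). Its log2 folds were -0.86, 0.35 and -0.51, and its 0 h interval lay above both later ones. Its close relative Kat6a was at 9.48, 10.8 and 8.47, and the ratio of Kat6b to Kat6a was 0.963, 0.426 and 0.722. Kat2b (PCAF) was at 13.2, 12.2 and 8.60 FPKM with a log2 fold of -0.56 from 0 h to 12 h and intervals apart. Hdac11 had the same rounded value, and no member was lower on this scale. Kat2a (GCN5), the highest of the family, was at 38.8, 39.7 and 41.1.

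None of the 10 measured deacetylases was past 2-fold, where 10.2% and 7.03% of all genes were higher and lower at 4 h. The classes differed. Class I (Hdac1, Hdac2, Hdac3 and Hdac8), whose first 3 members work in large nuclear corepressor complexes, summed to 194, 208 and 178 FPKM. Its 4 genes had a median log2 fold of 0.14 at 4 h (-0.01 over all genes), and of -0.14 on rescaled libraries (-0.29 over all genes). Hdac3 was at 63.6, 67.9 and 54.4 FPKM, and Hdac1 at 11.0, 13 and 10.4, so that Hdac1 was 0.0983, 0.109 and 0.0997 of Hdac2. Class IIa enzymes, which shuttle between nucleus and cytoplasm and act mainly as signal-dependent repressors, summed to 28.9, 50.2 and 31.5. Hdac5 was at 20.6 FPKM at 0 h (18.1 to 23.5), 35.6 at 4 h (31.9 to 39.3) and 21.8 at 12 h (18.3 to 25.3), with log2 folds of 0.76 and -0.68. Hdac7 was at 5.54 (4.11 to 6.99), 10.6 (7.63 to 16.1) and 6.78 (2.78 to 11.7), with log2 folds of 0.82 and -0.57. All 3 measured class IIa genes (Hdac4, Hdac5 and Hdac7) had positive log2 folds at 4 h on the deposited and the rescaled scale, and none was past 2-fold.

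The 2 class IIb genes summed to 35.2, 23.4 and 31.0 FPKM. Hdac6, a mainly cytoplasmic tubulin deacetylase, was at 24.3, 16 and 20.03, with intervals that overlapped (10.7 to 39.3 at 0 h and 9.12 to 22.8 at 4 h), and Hdac10 at 10.9 (7.36 to 16.4), 7.45 (4.32 to 12.1) and 11.0, also with overlapping intervals. Hdac11, the class IV enzyme, was at 4.32 FPKM (3.11 to 5.53), 2.19 (1.36 to 3.02) and 2.62 (1.70 to 3.55). Its 4 h interval lay below that of 0 h, at a log2 fold of -0.74. The class IIa to class I ratio within a library was 0.15, 0.242 and 0.177.

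None of the 4 measured Dnmt genes was past 2-fold in any comparison. Of the 3 TET genes only Tet1 was called, as lower at 4 h, where 7.03% of all genes were lower. Dnmt1, which copies methylation after replication, was at 41.8, 36.7 and 47.3 FPKM, and Dnmt3a, which places new methylation, at 16.1, 18.8 and 16.3. Dnmt3l, a cofactor without activity of its own, was at 2.06, 2.48 and 3.30 and had the highest 12 h over 0 h log2 fold of all members, 0.49, with overlapping intervals. Of the TET enzymes, which oxidise methylcytosine, Tet3 was highest at 11.5, 12.4 and 10.3 FPKM. Tet1 was at 2.49 (1.99 to 2.999), 0.729 (0.526 to 0.933) and 1.70 (0.494 to 3.96), a log2 fold of -1.01 at 4 h, and its 12 h interval overlapped both others. Tet1 met the floor at 4 h over 0 h only through the 0 h library where it was high, so its call adds nothing to the count. It was not called when 5 FPKM was required, and with a pseudocount of 5 FPKM its log2 fold at 4 h was -0.39. Tet2 was at 4.36, 6.93 and 4.77, so the ratio of Tet1 to Tet2 went from 0.572 to 0.105 and 0.357. Dnmt1 and Tet1 shared with the oocyte and erythroid marker sums their lowest value at 4 h. The oocyte sum, like Dnmt3l, was also higher at 12 h than at 0 h (350 and 255 FPKM for the sum). The part of oocyte or erythroid RNA in these levels was not tested.

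Isoform shares moved about as often as in other genes. Of 31 members with several isoforms 27 reached 5 FPKM in both libraries of a comparison, and 12 had an isoform whose share of the gene moved by at least 20 percentage points (44.4%, against 46.5% of 2952 genes with several isoforms at that floor). In 8 of these (Dnmt1, Dnmt3a, Hdac5, Hdac6, Hdac7, Kat7, Sirt3 and Suz12) the deposited FPKM intervals of such an isoform lay apart (29.6%, against 31.6%). In the other 4 (Hdac10, Kdm2b, Kmt5b and Setdb1) they overlapped. A short-read estimate divides fragments between isoforms that share most of their sequence, so the shares are less certain than the sums.

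Hdac5 held the largest change of share among these 8 genes. Its isoform NM_010412 was at 16.5 FPKM at 0 h (14.4 to 18.5) and at 0.0216 and 0.0242 at 4 h and 12 h, a share of 79.9%, 0.0608% and 0.111%. NM_001077696 went from 0.68 FPKM (0.174 to 1.19) to 32.5 (29.3 to 35.7) and 18.8 (15.9 to 21.6), a share of 3.30%, 91.3% and 86.1%. Unlike the gene sum, the shares at 12 h had not returned to those at 0 h. Both identifiers pair with the same annotated transcript of 3788 bases, so what distinguishes them could not be read from the annotation.

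Kat7, the MYST acetyltransferase HBO1, changed its leading isoform at 4 h. NM_001195003 was at 5.00 FPKM (1.66 to 8.34), 19.8 (18.0 to 21.6) and 7.15 (1.18 to 13.1), or 27.8%, 86% and 38.2% of the gene. NM_001195004 was at 12.2 (7.18 to 17.2), 0.984 (0.156 to 1.81) and 6.19 (0 to 18.9). In Sirt3 the lower level at 4 h lay in its main isoform NM_001177804, at 27.4 FPKM (23.2 to 31.6), 9.51 (6.76 to 12.3) and 27.8 (19.5 to 36.2). NM_022433 was at 1.41, 3.17 and 1.66 FPKM, and the main isoform's share was 95%, 74.8% and 94.3%. In Suz12 NM_199196 held 32.7%, 67.6% and 4.96% of the gene while the sum stayed between 26.1 and 29.4 FPKM.

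**Figure D5:**
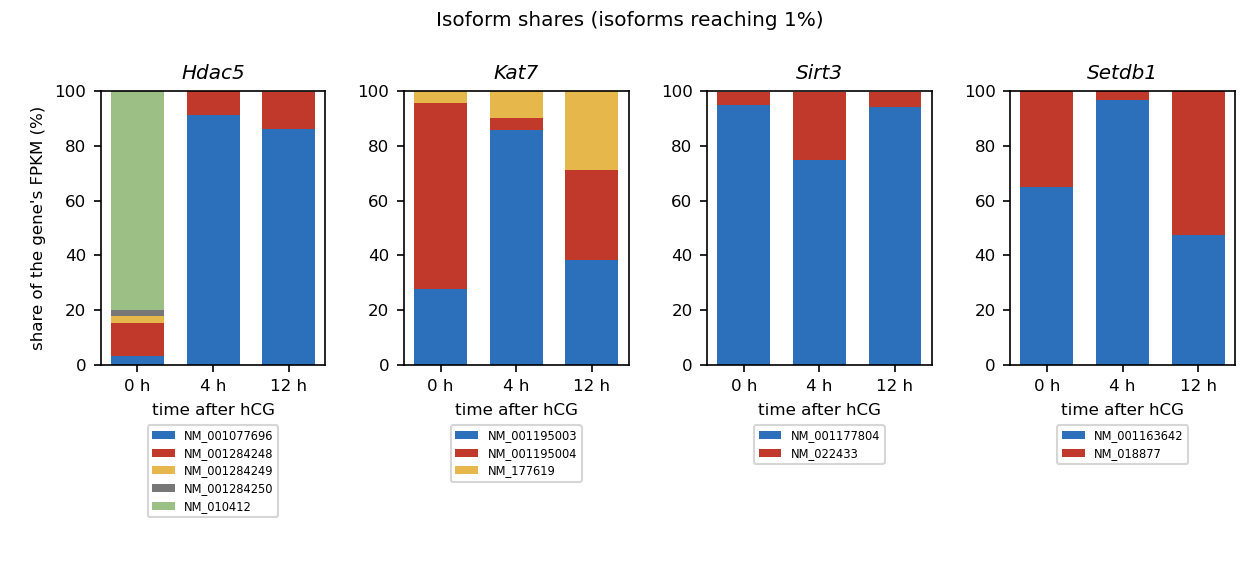
Share of a gene's FPKM held by each isoform in the 0, 4 and 12 h libraries, for Hdac5, Kat7, Sirt3 and Setdb1. Colours are the deposited isoform identifiers, and isoforms that never reach 1% are left out. The leading isoform of Hdac5 differs between 0 h and both later times, that of Kat7 stands out at 4 h, and in Setdb1 the intervals behind the shares overlapped.

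Genes that work with these enzymes were counted by list. None of the 18 Polycomb repressive complex 1 genes, 12 COMPASS subunits, 32 acetyltransferase complex subunits, 20 other histone methyltransferases, 7 other demethylases at the floor or 16 SWI/SNF remodellers was past 2-fold at 4 h on the deposited scale. Of all genes 10.2% were higher and 7.03% lower, and the medians of these lists lay between -0.10 and 0.37. On rescaled libraries 1 Polycomb repressive complex 1 gene, 2 acetyltransferase complex genes and 1 SWI/SNF gene were lower, where 13.1% of all genes were. Among 24 deacetylase corepressor genes Tbl1x, part of the NCoR complex, was the single call (4.17%, against 10.2% of all genes). It was at 17.2, 37.0 and 19.8 FPKM, and was short of 2-fold on rescaled libraries. None of the 24 DNA replication genes was past 2-fold on the deposited scale. At 4 h 20 of them had a negative log2 fold, and the median was -0.38. On rescaled libraries 3 of the 24 were lower, against 13.1% of all genes.

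Among 13 measured DNA methylation partners 3 (23.1%, against 10.2% of all genes) were higher at 4 h and none lower (against 7.03%). On rescaled libraries 2 were higher and 1 lower, where 7.6% and 13.1% of all genes were. Gadd45a and Gadd45b, stress-response genes linked to active DNA demethylation, were at 26.0, 87.4 and 57.4 FPKM and at 12.7, 40.3 and 46.1 FPKM. Unlike Kdm3a and Kdm6b they were still past 2-fold at 12 h over 0 h, with log2 folds of 1.11 and 1.78. Tdg, a glycosylase of the same pathway, was at 0.344, 2.005 and 0.772 FPKM and met the floor only through the 4 h library where it was high, so its call adds nothing to the count. Of 14 BET and bromodomain readers 2 (14.3%, against 10.2% of all genes) were higher at 4 h and lower at 12 h than at 4 h (against 7.88%), the remodeller subunit Baz1a at 4.71, 18.2 and 7.81 FPKM and Phip at 17.6, 38.1 and 15.4. On rescaled libraries 1 of the 14 was higher at 4 h and none was lower at 12 h than at 4 h, against 7.6% and 5.23% of all genes.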

How the data were processed

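RNA-seq isoform levels of 3 libraries were analysed, 1 per time. The deposited values are FPKM per RefSeq isoform with a standard deviation and interval bounds. Per the file headers the bounds are the authors' own. Each half-width equals 2 of the deposited standard deviations, except where the lower bound is cut at 0. The submitters' processing notes name CASAVA 1.8, TopHat2 2.1.1, Cufflinks 2.2.1 and mm10, without roles. Of 34535 isoforms 34169 were matched to genes through RefSeq, 193 through GENCODE, and 173 were left out; 12 failed estimates, 0 of them in members, were not used. Setdb2 and 8 pseudogenes fitting the rule had no matched transcript. Gene bounds combine isoform half-widths as the root of their summed squares.

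Folds used a pseudocount of 1 FPKM, and steps were tested on simulated data. Python 3.11.15, pandas 2.3.3 and numpy 2.4.6 were used. Depth came from FPKM steps: 70.9%, 70% and 71.8% of low values lay within 0.1 of whole fragments, against 20% by chance. The median half-width of members at 10 FPKM or more was 15.7%, 10% and 14.7% of the value. Members and lists were chosen with earlier results of these data known. Named were members past 2-fold, the highest, lowest and 2 most changed of each family, the 10 highest, those under 1 FPKM, and isoform changes, with up to 3 genes per list; close relatives, neighbours and class sums were added after values were seen. The alternatives were 2 pseudocounts, 2 filters, 2 scalings, the main isoform, 2 call rules and, chosen after seeing the data, removal of a trend with transcript length.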

Additional observations from a re-analysis of the deposited data

How the results depend on the processing

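Counts of members called moved with several choices. At 4 h over 0 h, where 2 members were higher and 3 lower, a pseudocount of 5 FPKM gave 1 and 0, rescaled libraries 0 and 5, the main isoform 7 and 5, and a 1.5-fold threshold 8 and 6. Removing the length trend gave 1 higher, with Kdm6b at 0.94; members' transcripts had a median of 4189 bases against 2745. At 12 h over 4 h, where 2 were higher and 2 lower, a pseudocount of 5 FPKM gave 0 and 1, rescaled libraries 0 lower (3 higher), the main isoform 4 higher, a 1.5-fold threshold 4 and 7, and removing the length trend 1 higher. Rescaling moves all genes alike: the members' median became -0.18 at 4 h (0.11 as deposited) beside -0.29 over all genes (-0.01), and 0.21 at 12 h over 4 h (-0.16) beside 0.37 (0.01). At 12 h over 0 h the main isoform gave 2 higher (Hdac5 and Dnmt3l) in place of 0. The other 67 values for these counts, medians and isoform shares stayed within the limits set for them. No paired analysis was possible because there was 1 library per time. Intervals are wide for several isoform shares and for genes of a few FPKM.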

Other observations

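Because the mitochondrial sirtuins had their lowest level at 4 h, nuclear genes of other mitochondrial functions were counted with lists chosen after seeing the data. Of 18 genes of the tricarboxylic acid cycle none was past 2-fold at 4 h on the deposited scale, 14 had a negative log2 fold and the median was -0.22, against 0.19 at 12 h over 4 h. Of 14 genes of mitochondrial fatty acid oxidation Hadh was lower, at 93.7, 42.1 and 75.8 FPKM, and Cpt1a, which brings fatty acids into mitochondria, was higher, at 30.8, 78.0 and 42.7 FPKM. The median of that list was -0.52 at 4 h and 0.34 at 12 h over 4 h. Of 77 measured genes of the mitochondrial ribosome 4 were lower at 4 h (Mrpl13, Mrpl14, Mrpl23 and Mrps21) and none higher, with a median of -0.25. That is 5.19%, under the 7.03% of all genes called lower. Mrps21 was at 312, 118 and 196 FPKM and Mrpl14 at 92.4, 36.8 and 97.1. On rescaled libraries the 3 list medians at 4 h were -0.53, -0.81 and -0.55, with 1 of 18, 4 of 14 and 7 of 77 genes lower. On that scale the median of all genes was -0.29, and 13.1% of them were called lower.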
